A study of Mus musculus with 4 samples.

Results

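The genes described here are 38 genes of G2 and mitosis, listed by symbol for their roles, with earlier results of these data known: cyclins and their kinase, the Aurora and Polo-like kinases, the spindle checkpoint, centromere and kinetochore proteins, mitotic kinesins and spindle proteins, the anaphase-promoting complex (APC/C), and 3 genes of proliferating cells. They were found through the gene symbols of the array's probes, which gave 36 probes for 35 of the 38 genes, out of 19306 genes with values on 4 arrays. Ccnb1, Kif2c and Foxm1 had no probe named here and are not reported. Of the 35 genes, 35 lay above the detection limit on 4 of 4 arrays, so the filter on dim genes removed none of them.

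The arrays measured total RNA of E0771, a mouse line from breast carcinoma that the study treats as triple negative. Vehicle (medium alone) or 30 ng/ml of the IL-10 family cytokine IL-26 was given for 6 or 24 h, and no EGFR inhibitor is named for any of these samples. Each of the 4 combinations was measured once, so there were 4 groups of 1 array: vehicle 6 h, IL-26 6 h, vehicle 24 h and IL-26 24 h. The study used the arrays to look for genes that respond to IL-26, and the design also compares 24 h with 6 h.

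A cell enters mitosis when CDK1 bound to a B-type cyclin is freed from inhibitory phosphates by CDC25 phosphatases, with the Aurora and Polo-like kinases building the spindle around it. The spindle checkpoint holds the APC/C, a ubiquitin ligase, in check until each kinetochore is attached. CDC20 and then CDH1 (encoded by Fzr1) direct the APC/C to securin and the cyclins, whose destruction separates the sister chromatids and ends mitosis. Transcripts of many of these genes are low in G1 and high in G2 and M, through the MuvB complex with B-MYB and FoxM1, which acts at promoter elements called CHR, often beside CCAAT boxes bound by NF-Y.

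The promoters are shown because these elements are the known shared feature of the gene group. RefSeq promoter windows (build GRCm38.p6, from 250 bases before to 50 after an annotated start) matched 32 of the 38 genes by symbol. Windows were searched on both strands for TTTGAA (CHR) and CCAAT (NF-Y box). Below are the windows, ended 29 bases after the start, of the 5 largest rises with time that had a window and of both genes that fell. Capitals mark the matches of both motifs on either strand, and each run reads 5′ to 3′ on the strand of the gene.
Bub1b (chr2:118597961-118598240, plus strand): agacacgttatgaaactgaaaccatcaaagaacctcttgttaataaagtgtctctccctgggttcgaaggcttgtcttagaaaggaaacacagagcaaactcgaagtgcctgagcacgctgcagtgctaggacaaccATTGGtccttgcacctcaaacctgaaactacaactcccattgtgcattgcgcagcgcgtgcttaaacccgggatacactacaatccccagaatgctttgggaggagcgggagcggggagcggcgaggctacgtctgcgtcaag
Nusap1 (chr2:119618048-119618327, plus strand): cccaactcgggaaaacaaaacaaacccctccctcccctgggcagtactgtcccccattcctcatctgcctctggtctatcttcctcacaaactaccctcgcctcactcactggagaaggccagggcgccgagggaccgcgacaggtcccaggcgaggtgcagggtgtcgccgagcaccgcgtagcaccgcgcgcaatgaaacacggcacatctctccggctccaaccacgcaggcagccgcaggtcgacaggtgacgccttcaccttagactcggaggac
Cenpa (chr5:30666636-30666915, plus strand): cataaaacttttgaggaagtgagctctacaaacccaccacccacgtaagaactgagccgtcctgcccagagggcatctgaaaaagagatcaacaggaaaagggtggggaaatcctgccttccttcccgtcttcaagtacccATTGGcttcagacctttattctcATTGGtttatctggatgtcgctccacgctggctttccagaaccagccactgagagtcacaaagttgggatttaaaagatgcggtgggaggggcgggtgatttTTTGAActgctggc
Ccnb2 (chr9:70421525-70421804, minus strand): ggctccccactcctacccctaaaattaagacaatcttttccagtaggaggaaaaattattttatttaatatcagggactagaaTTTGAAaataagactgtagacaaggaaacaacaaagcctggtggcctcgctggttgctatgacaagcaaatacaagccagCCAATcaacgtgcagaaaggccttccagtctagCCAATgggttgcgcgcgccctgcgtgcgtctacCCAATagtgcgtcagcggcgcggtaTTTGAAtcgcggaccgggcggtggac
Bub1 (chr2:127831830-127832109, minus strand): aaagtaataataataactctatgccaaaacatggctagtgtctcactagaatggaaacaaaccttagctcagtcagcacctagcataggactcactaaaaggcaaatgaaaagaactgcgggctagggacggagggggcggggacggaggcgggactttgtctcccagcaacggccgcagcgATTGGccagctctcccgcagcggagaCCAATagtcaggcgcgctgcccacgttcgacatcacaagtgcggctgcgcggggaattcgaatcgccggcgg
Pttg1 (chr11:43425952-43426231, minus strand): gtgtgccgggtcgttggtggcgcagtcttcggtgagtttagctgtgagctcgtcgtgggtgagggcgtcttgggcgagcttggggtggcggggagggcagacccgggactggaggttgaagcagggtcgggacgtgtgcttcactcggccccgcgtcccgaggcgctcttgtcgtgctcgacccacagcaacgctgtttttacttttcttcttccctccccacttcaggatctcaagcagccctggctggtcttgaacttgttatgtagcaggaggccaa
Cdk1 (chr10:69352883-69353162, minus strand): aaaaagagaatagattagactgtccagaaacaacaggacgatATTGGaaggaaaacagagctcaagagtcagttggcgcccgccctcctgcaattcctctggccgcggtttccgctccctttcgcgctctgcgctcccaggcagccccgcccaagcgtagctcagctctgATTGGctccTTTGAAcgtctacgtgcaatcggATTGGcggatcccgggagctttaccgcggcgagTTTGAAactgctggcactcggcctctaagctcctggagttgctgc

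Of the 32 genes, 19 (59.4%) held TTTGAA in a window, against 20.2% of 27025 mouse genes with such windows. CCAAT was present in 24 of 32 (75%), against 41.1% of these genes, and both motifs stood in 1 window in 18 (56.2%), against 7.97%. Among members that rose with time, 10 of 14 held both motifs, and among those tested that did not rise it was 8 of 16. The motifs therefore occurred in members that moved and in members that did not. Ccnb2, for example, held 3 CCAAT boxes spaced 33 bases apart and a TTTGAA beginning 4 bases after the start, and Cdk1, which fell, held 3 CCAAT boxes and 2 TTTGAA. In Bub1b the TTTGAA began 40 bases after the start, beyond the printed stretch. Nusap1, which rose, and Pttg1, which fell, held neither motif in this window. In the first window of each gene, 19 of 24 TTTGAA matches (79.2%) began within 100 bases before the start or after it, against 41.3% over all genes, and 0 of the 24 overlapped a CCAAT match. A match is a description of the letters and no measure of binding.

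**Figure D1:**
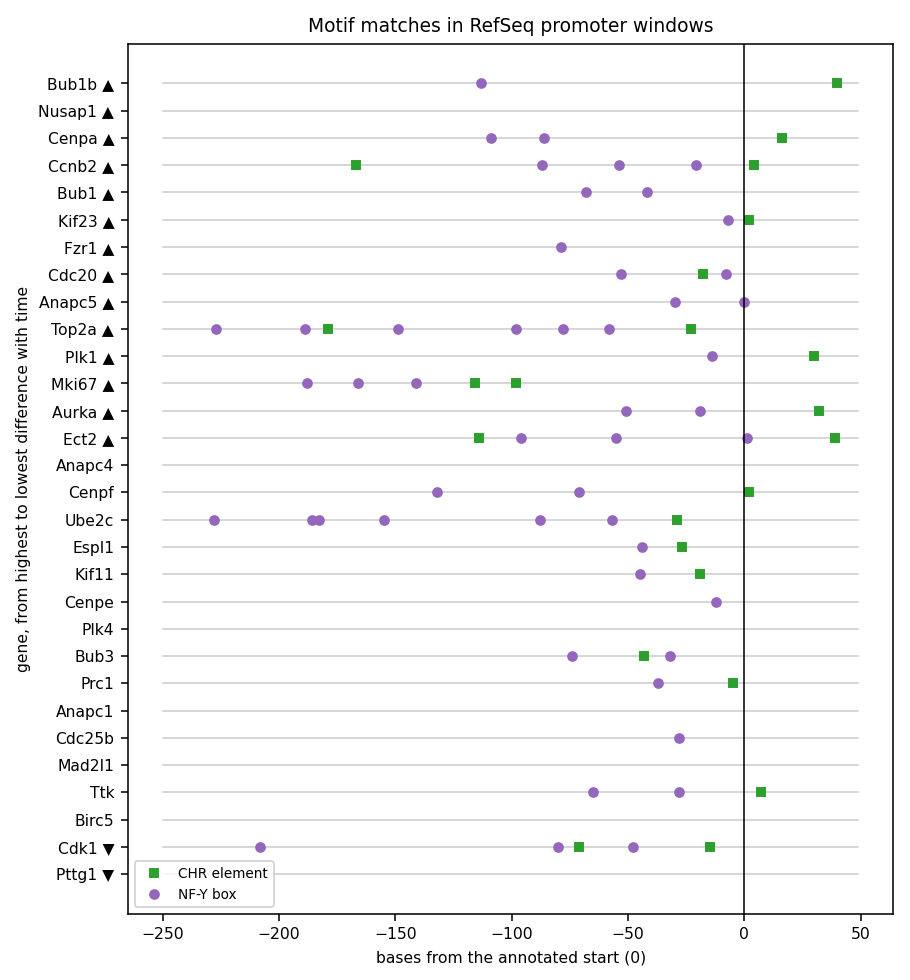
Places of TTTGAA (CHR element, squares) and CCAAT (NF-Y box, circles) matches in the first RefSeq promoter window of the 30 measured genes that had one, by bases from the annotated start, with genes ordered from the highest to the lowest difference of 24 h against 6 h. Triangles mark genes higher or lower at 24 h by limma, and matches occur from the top to the bottom of this order.

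Members' values are log2 spot intensities after background correction from blank spots and quantile normalization, 1 per array. The blank spots set a detection limit of 51.8 to 58.1 intensity units per array, and the median gene spot lay at 78.0 to 84.4. Of the 35 members, 34 were brighter than the median detected gene. The dim exception was Prc1, an organiser of the spindle midzone, whose spots lay at 56.5, 55.9, 63.0 and 56.6, close to the limits. Epithelial markers were weak in these cells: Krt8 was bright at 1436 to 1838, while the other 6, among them Epcam and Cdh1, lay at 58.2 to 74.3. Of 5 mesenchymal markers, Vim, a filament protein, was at 15519 to 19168, while Fn1 (51.7 to 59.0) and Cdh2 (59.0 to 63.8) were as dim as the weak epithelial markers. Zeb1 (164 to 268) and Twist1 (381 to 652) lay between these. The leukocyte marker Ptprc lay at 55.2 to 60.6, while the leukocyte markers Cd68 (333 to 421) and Lyz2 (126 to 184) lay well above the limit. The adipocyte marker Adipoq stayed below the limit on each array, and Fabp4 lay at 124 to 323.

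More of the mitotic genes were higher at 24 h than at 6 h. In a limma model with time and treatment over 4 arrays, 16 of 35 members were higher at 24 h (45.7%) at an adjusted p under 0.05, where 14.5% of the 18360 genes tested were. Another 2 members, Cdk1 and Pttg1, were lower (5.71%), where 14.3% of genes were lower. The remaining 17 did not pass the threshold. The members are brighter than most genes, and brighter genes are called more often. Among the 9180 genes above the median brightness, 21% were called higher and 22% lower, against 16 and 2 of the 34 members in that range. With arrays scaled to a common median in place of the quantile step, the calls over all genes split as 3899 higher and 2438 lower in place of 2662 and 2622, and 17 and 2 members were called.

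Both 24 h arrays lay above both 6 h arrays in 20 of 35 members (57.1%), against 29.9% of genes, and below both in 4 (11.4%), against 32.5%. Those below were Cdk1, Pttg1, Mad2l1 and Ttk. With 1 array per combination the model keeps 1 residual degree of freedom, and its p-values lean on the spread shared over all genes. They do not measure the spread between repeated cultures. Nothing in the labels says whether the samples came from separate cultures. In RNA of a whole culture, more cells in G2 or M and more transcript per such cell cannot be told apart. When each spot's local background was subtracted instead of the blank level, 0 members were called for time in either direction.

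**Figure D2:**
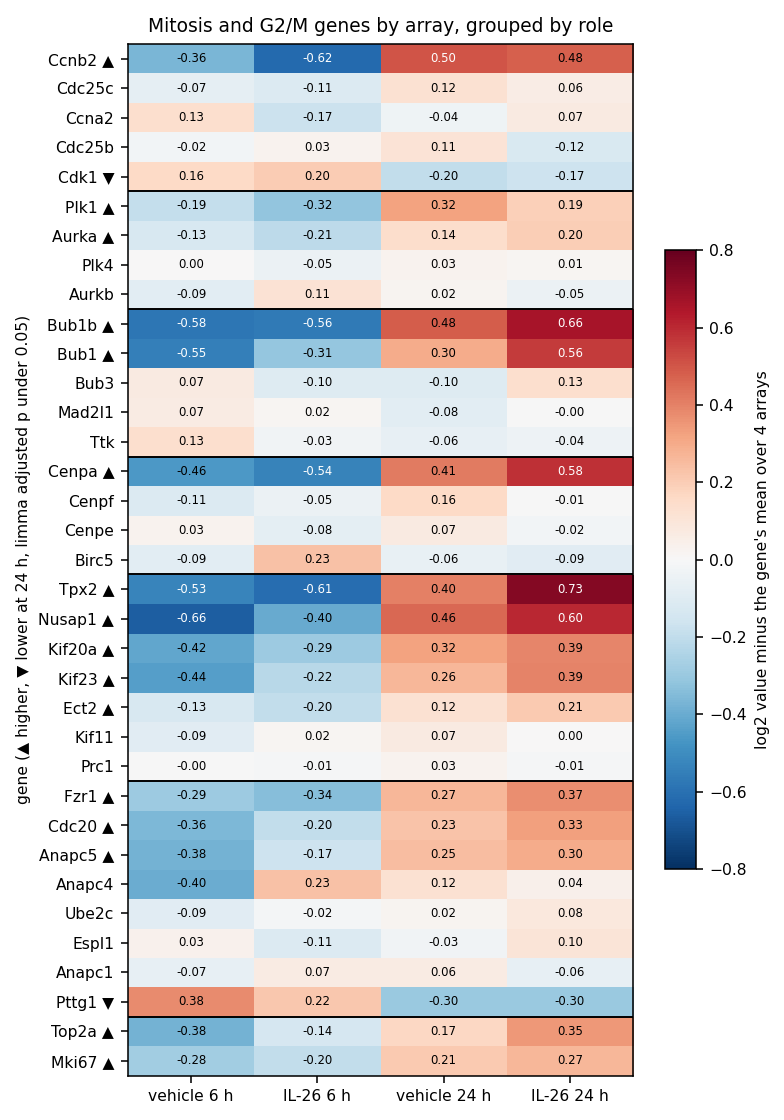
Each cell is the log2 value of a gene on 1 array minus the gene's mean over the 4 arrays (red above, blue below), with genes grouped by role and ordered by their difference with time. Rows marked with a triangle passed the limma threshold, and the strongest colours, in Bub1b, Tpx2, Nusap1, Cenpa and Ccnb2, change sign between the 6 h and the 24 h arrays and keep it between vehicle and IL-26.

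Among the cyclins, CDK1 and the CDC25 phosphatases, 1 of 5 measured genes rose and 1 fell. Over all genes 14.5% were called higher and 14.3% lower. Ccnb2, a B-type cyclin that activates CDK1, had log2 values of 8.85 (vehicle) and 8.59 (IL-26) on the 6 h arrays, and of 9.72 and 9.69 on the 24 h arrays. Its groups did not overlap, and the mean difference was 0.98 (SE 0.11), a 1.98-fold rise (limma adjusted p = 4.35e-11). Cdk1, the kinase of mitotic entry, was at 11.65 and 11.69 at 6 h and at 11.29 and 11.32 at 24 h. It went the other way from its cyclin partner: it fell by 0.36 (SE 0.11, limma adjusted p = 0.00717), with the same order in both treatments. The cyclin Ccna2, which acts in S phase and G2, showed log2 values of 11.41 and 11.11 at 6 h and of 11.24 and 11.35 at 24 h. These overlapped. Cdc25b and Cdc25c, phosphatases that activate CDK1, differed by -0.01 (SE 0.11) and 0.18 (SE 0.09). Cdc25c lay higher on both 24 h arrays, at 7.88 and 7.82 against 7.69 and 7.65, but missed the threshold (limma adjusted p = 0.122), and passed it with median scaling (0.0355) and with the authors' own values (0.0369).

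Of the Aurora and Polo-like kinases, 2 of 4 rose, where 14.5% of all genes were called higher. Plk1, which drives mitotic entry and centrosome maturation, was at 8.32 (vehicle) and 8.20 (IL-26) on the early arrays and at 8.84 and 8.70 on the late ones, a rise of 0.51 on the log2 scale (SE 0.10, limma adjusted p = 3.68e-05). Aurka, the Aurora kinase of the spindle poles, was at 9.98 and 9.90 at 6 h and at 10.25 and 10.31 at 24 h, a rise of 0.34 (SE 0.11, limma adjusted p = 0.0161). For both genes the lower 24 h array still lay above the higher 6 h array. Aurkb, the catalytic part of the chromosomal passenger complex, differed by -0.03 (SE 0.11), with values of 9.98 and 10.19 at 6 h and 10.09 and 10.02 at 24 h. Plk4, the kinase of centriole duplication, differed by 0.04 (SE 0.09). It was the one member with 2 probes, and these read 8.67, 8.50, 8.58 and 8.64 and 7.20, 7.27, 7.35 and 7.26 over the arrays in the order vehicle 6 h, IL-26 6 h, vehicle 24 h and IL-26 24 h. Neither probe separated the times.

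The spindle checkpoint split into 2 genes that rose and 3 that were not called, where 14.5% of all genes were called higher. Bub1b, which encodes the checkpoint kinase-like protein BUBR1, had the highest rise of all members, from 7.48 and 7.50 at 6 h to 8.54 and 8.72 at 24 h. The difference was 1.14 (SE 0.09), or 2.21-fold (limma adjusted p = 1.08e-15). Bub1, the kinase that brings checkpoint proteins to kinetochores, rose from 8.89 and 9.13 to 9.73 and 10.00, by 0.86 (SE 0.11, limma adjusted p = 2.93e-09). Both genes were at least 1.5-fold higher at 24 h with vehicle and with IL-26. The partner of both, Bub3, had overlapping values of 10.09 and 9.91 at 6 h and 9.91 and 10.15 at 24 h. Mad2l1, whose product MAD2 is the inhibitor of CDC20, read 10.65 and 10.60 early and 10.50 and 10.58 late. Ttk, the kinase MPS1 at the top of the checkpoint, read 7.72 and 7.56, then 7.52 and 7.54. Both lay lower on the 24 h arrays, but by less than the test could separate, with differences of -0.08 (SE 0.11) for Mad2l1 and -0.10 (SE 0.08) for Ttk.

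Where 14.5% of all genes were called higher, 1 of the 4 centromere and kinetochore genes was, Cenpa. It encodes the histone H3 variant that marks centromeres, and its log2 values were 10.36 (vehicle) and 10.28 (IL-26) on the 6 h arrays, then 11.23 and 11.40 on the later pair. The rise of 0.998 (SE 0.11) was seen in both treatments, at 0.87 with vehicle and 1.12 with IL-26 (limma adjusted p = 1.11e-10). Cenpe, a kinetochore motor, differed by 0.05 (SE 0.08), and Cenpf, a large kinetochore protein, by 0.16 (SE 0.11). Cenpf lay higher on both 24 h arrays, at 9.68 and 9.51 against 9.40 and 9.47. Birc5 encodes survivin, a subunit of the chromosomal passenger complex, and read 10.67, 10.99, 10.70 and 10.66 over the arrays. Its IL-26 6 h array was the highest and the other 3 lay close together.

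Mitotic kinesins, spindle and cytokinesis genes rose in 5 of 7 measured, where 14.5% of all genes were called higher. Their median difference was 0.66, against -0.00 over the genes tested. Tpx2, which activates Aurora A and nucleates spindle microtubules, went from 9.18 and 9.10 at 6 h to 10.11 and 10.44 at 24 h, a 2.20-fold rise (log2 difference 1.14, SE 0.11, limma adjusted p = 2.04e-12). Nusap1, a microtubule-bundling protein of the spindle, went from 7.78 and 8.03 to 8.89 and 9.04, by 1.06 (SE 0.10, limma adjusted p = 1.36e-13). Neither gene came near to overlapping between the times. Kif20a, a kinesin of the central spindle, rose from 9.33 and 9.46 to 10.07 and 10.14, by 0.71 (SE 0.11, limma adjusted p = 5.32e-07). Kif23, the kinesin of the centralspindlin complex, rose from 7.08 and 7.30 to 7.79 and 7.92, by 0.66 (SE 0.08, limma adjusted p = 2.69e-09). Ect2 encodes the RhoA activator that centralspindlin recruits for the cleavage furrow, and it rose by less: from 8.76 and 8.70 to 9.01 and 9.10, a difference of 0.33 (SE 0.10, limma adjusted p = 0.0118). Kif11, the bipolar kinesin that separates spindle poles, differed by 0.08 (SE 0.09), with values of 7.86, 7.97, 8.03 and 7.96. The 4 values of Prc1, at 5.80, 5.80, 5.83 and 5.79, lay near the floor set by the offset, where a difference would be compressed.

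In the APC/C group 3 of 8 genes rose and 1 fell, where 14.5% of all genes were called higher and 14.3% lower. The activators rose together: Cdc20, which starts anaphase, from 10.52 and 10.68 to 11.10 and 11.20, by 0.55 (SE 0.11, limma adjusted p = 6.89e-05). Fzr1, whose product CDH1 keeps the APC/C active into G1, went from 7.85 and 7.81 to 8.41 and 8.52, by 0.64 (SE 0.09, limma adjusted p = 1.73e-07). Both 24 h values of each activator were above both 6 h values. Pttg1 encodes securin, the inhibitor of separase and a substrate of the complex, and it fell from 7.36 and 7.20 to 6.69 and 6.69, by 0.59 on the log2 scale (SE 0.07, limma adjusted p = 1.23e-09). It was the one member at least 1.5-fold lower at 24 h with vehicle, by 0.67, and fell by 0.51 with IL-26. Espl1, the separase that securin holds, differed by 0.08 (SE 0.10), and Ube2c, the ubiquitin-conjugating enzyme of the complex, by 0.11 (SE 0.11).

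The scaffold subunits of the APC/C did not move as 1 group. Anapc5 rose from 10.17 and 10.39 to 10.80 and 10.85, by 0.55 (SE 0.11, limma adjusted p = 9.87e-05). Anapc1 read 7.97 and 8.10 on the earlier arrays, then 8.10 and 7.97, a mean difference of 0.00 (SE 0.09). Anapc4 was low on a single array, vehicle 6 h, at 9.94, against 10.57, 10.46 and 10.38 on the others. On that array its local background (1292) was above its spot (1054). The mean difference with time was 0.17 (SE 0.12) and did not pass.

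Both measured genes of the last group rose, where 14.5% of all genes were called higher. Mki67, which encodes the proliferation antigen Ki-67, went from 7.70 and 7.79 at 6 h to 8.19 and 8.25 at 24 h, by 0.48 (SE 0.09, limma adjusted p = 2.7e-05). Top2a, the topoisomerase that untangles sister chromatids, went from 10.10 and 10.35 to 10.65 and 10.83, by 0.52 (SE 0.11, limma adjusted p = 0.000209). In both genes the order of the normalized values was vehicle 6 h, IL-26 6 h, vehicle 24 h and IL-26 24 h from low to high. Before normalization Mki67 was slightly lower with IL-26 than with vehicle, at 216 against 218 at 6 h and 294 against 305 at 24 h. Neither gene passed the threshold for IL-26.

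The rise was present under each treatment. With vehicle the members' median difference of 24 h against 6 h was 0.25, and with IL-26 it was 0.23, against -0.01 and -0.00 over all genes. At least 1.5-fold higher at 24 h were 10 of 35 members with vehicle (2.63% of all genes) and 9 with IL-26 (2.88%). At least 1.5-fold lower were 1 member with vehicle (1.99% of all genes) and 0 with IL-26 (2.24%). These comparisons share no array. Over the 35 members their differences had a Pearson r of 0.87 and a Spearman rho of 0.81, with 25 of the same sign, as a description across genes. Over all 18360 genes r was 0.86.

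**Figure D3:**
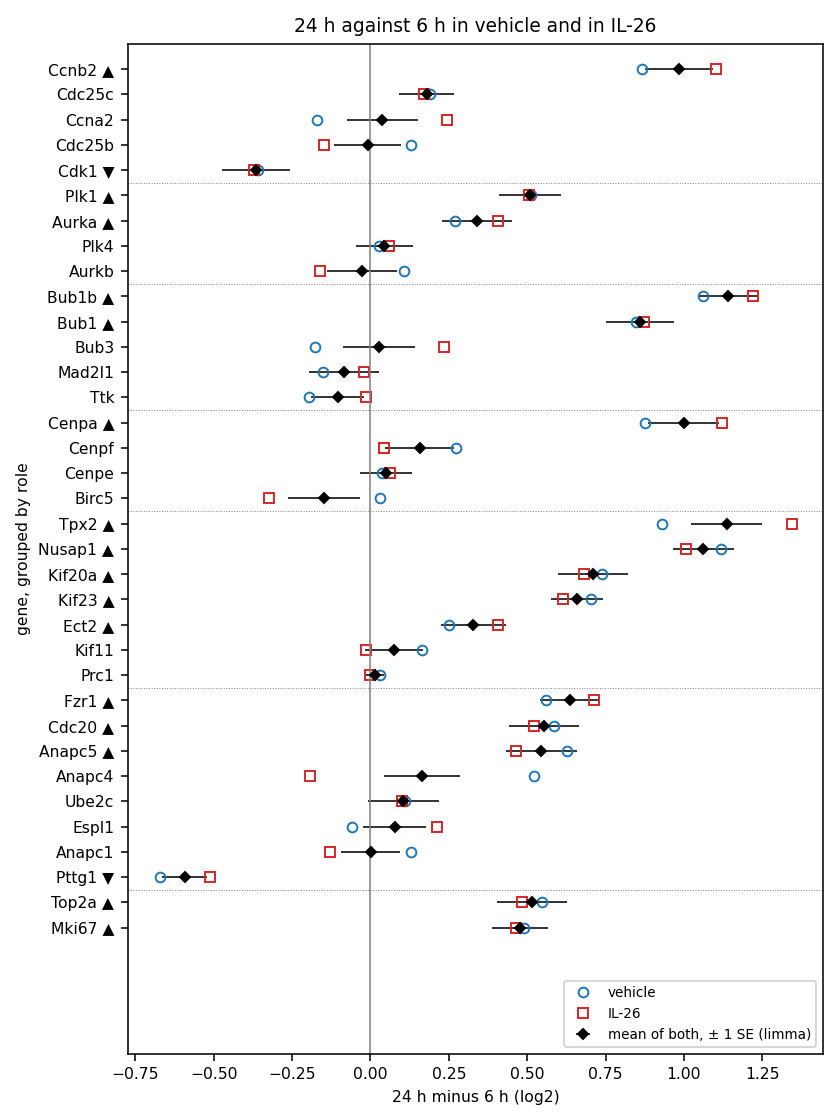
Difference of 24 h against 6 h (log2) for each of the 35 measured genes with vehicle (circles) and with IL-26 (squares), 1 array per time, and the mean of both with 1 SE from limma (diamonds), grouped by role. The genes with the highest rises, Bub1b, Tpx2, Nusap1, Cenpa and Ccnb2, lie far from 0 in both treatments, whereas for Anapc4, Ccna2 and Bub3 the circle and the square lie on opposite sides of 0.

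The time points also differed in some of the cell type markers, and whether other cells were present was not tested. Fabp4, a fatty acid-binding protein of adipocytes and macrophages, was at 133 and 124 intensity units at 6 h and at 323 and 305 at 24 h, a rise of 1.30 on the log2 scale. The summed level of the 3 adipocyte markers above the blanks followed Fabp4, at 99.3 and 88.3 at 6 h and 281 and 266 at 24 h. Plin1 lay at 64.5 to 71.3 and did not pass the limma threshold for time, and Adipoq was below the limit throughout. Of 8 leukocyte markers, 7 had a probe, and their sum was 546 and 497 at 6 h and 374 and 418 at 24 h, with Ptprc near the limit. Cd68, the brightest of them, was at 421 and 388 at 6 h and at 333 and 367 at 24 h. It did not pass the threshold for time (limma adjusted p = 0.173). Lyz2 fell by 0.51 and passed, Ptprc, Cd3e, Cd79a and Adgre1 did not pass, and Itgam was below the limit. Of the endothelial markers, Kdr fell by 0.19 (limma adjusted p = 0.00486), and Pecam1, Cdh5 and Tek did not pass. Of the mesenchymal regulators, Zeb1 rose by 0.55 and Twist1 fell by 0.52. The part of these changes in the mitotic genes was not tested.

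Other genes of the same machinery, from lists chosen by function, were set beside the members. Kinetochore and centromere proteins were higher in 12 and lower in 3 of 36 genes, against 14.5% and 14.3% of all genes, with a median difference of 0.01. Pmf1, a subunit of the MIS12 complex, rose by 0.70 (SE 0.11), and Zwilch, of the checkpoint complex RZZ, by 0.59 (SE 0.09). Ska2, of the microtubule-binding SKA complex, fell by 0.29 (SE 0.10). Hjurp, the chaperone that deposits CENP-A, fell by 0.29 (SE 0.11), while Cenpa itself rose. Condensin and cohesin genes, which fold and hold chromatids, rose in 10 and fell in 1 of 18, with a median of 0.22. The condensin subunits Ncapd2 (1.24, SE 0.11) and Ncaph (0.63, SE 0.11) led, and Nipbl, the cohesin loader, fell by 0.42 (SE 0.11).

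Further spindle, kinesin and cytokinesis genes were higher in 17 (43.6%) and lower in 5 (12.8%) of 39, with a median of 0.19. Tacc3, a spindle protein phosphorylated by Aurora A, rose by 1.08 (SE 0.10), and Pimreg, a mitotic protein that binds the clathrin assembly protein CALM, by 1.06 (SE 0.10). Sass6, of the centriole cartwheel, fell by 0.43 (SE 0.08), and Haus2, of the augmin complex, by 0.42 (SE 0.09). Other APC/C genes were mixed, at 3 higher (21.4%) and 2 lower (14.3%) of 14, against 14.5% and 14.3% of all genes. Anapc13 rose by 0.51 (SE 0.11) and Anapc2 by 0.30 (SE 0.11), whereas Cdc26 fell by 0.42 (SE 0.11) and Anapc10 by 0.38 (SE 0.11).

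Regulators upstream of CDK1 moved both ways, with 5 higher (29.4%) and 4 lower (23.5%) of 17, against 14.5% and 14.3% of all genes. Bora, the cofactor with which Aurora A activates PLK1, rose by 0.49 (SE 0.09), and the checkpoint kinase Chek2 by 0.44 (SE 0.08). Cdc25a, the phosphatase that also serves S phase entry, fell by 0.71 (SE 0.09), and the checkpoint kinase Chek1 by 0.48 (SE 0.10). Among the MuvB, E2F, B-MYB and NF-Y genes 2 rose (9.52%) and 5 fell (23.8%) of 21. Rbbp4, a histone-binding subunit of MuvB, rose by 0.39 (SE 0.09) and E2f3 by 0.33 (SE 0.08). Tfdp1, the dimer partner of the E2Fs, fell by 0.47 (SE 0.11), and Nfyc, a subunit of NF-Y, by 0.40 (SE 0.09).

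Some genes of G1 and S phase were lower at 24 h. Of 7 G1 and S cyclins and kinases 0 rose and 3 fell, with Ccne1, the cyclin of S phase entry, lower by a log2 difference of -0.87 (SE 0.10) and Ccnd2, a D-type cyclin, by -0.74 (SE 0.11). DNA replication genes were higher in 5 (10.4%) and lower in 16 (33.3%) of 48, with a median of -0.15. Over all genes 14.5% were higher and 14.3% lower. Rrm2, a subunit of ribonucleotide reductase, fell by 0.86 (SE 0.11), and Fen1, the flap endonuclease, by 0.84 (SE 0.11). Cdc45, of the replicative helicase, went against them and rose by 0.67 (SE 0.11), and Pole, a DNA polymerase, by 0.53 (SE 0.08). Of 7 CDK inhibitors, Cdkn2d (0.86, SE 0.09) and Cdkn1a (0.55, SE 0.10), encoding p19 INK4d and p21, rose, and Cdkn1b, encoding p27, fell by 0.25 (SE 0.06). Each gene named from a list passed the limma threshold for time.

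**Figure D4:**
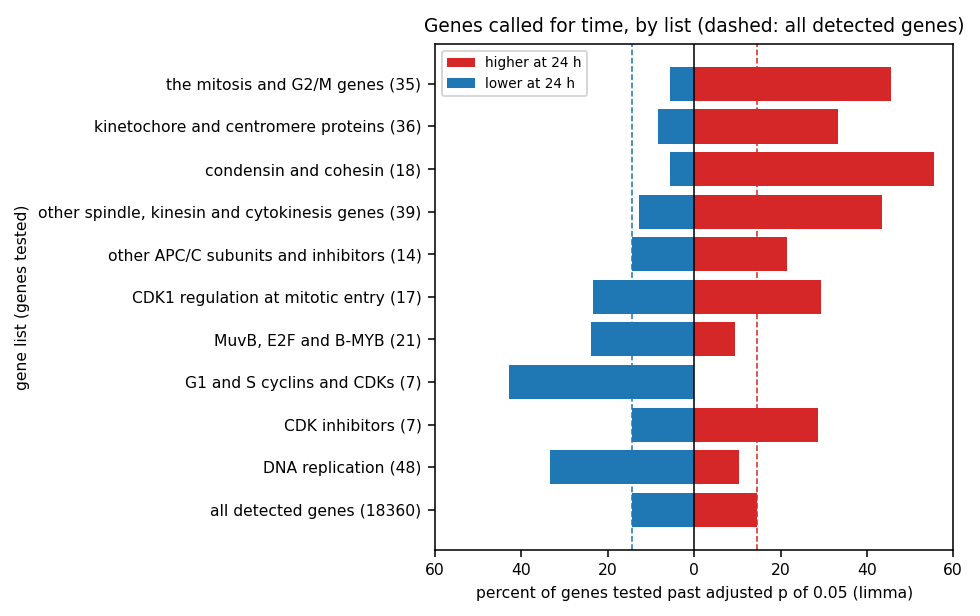
Percent of tested genes called higher (right) or lower (left) at 24 h by limma at an adjusted p under 0.05, for the 35 mitosis and G2/M genes, 9 lists of related genes and all 18360 genes, with the number tested in brackets and dashed lines at the share over all genes (14.5% and 14.3%). Condensin and cohesin, the members and the other spindle genes reach furthest to the right, and the G1 and S cyclins and the DNA replication genes furthest to the left.

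No mitotic gene passed the threshold for IL-26. Averaged over both times, 0 of 35 were called higher (0.153% of all genes) and 0 lower (0.272% of all genes) by limma, and 4 had an unadjusted p under 0.05, against 862 of 18360 genes (4.69%). The lowest limma adjusted p among members was 0.883, for Bub1, and the median SE of a member's difference was 0.11, so that differences of that size could not be resolved. These 4 were higher with IL-26 by a mean of 0.25 (SE 0.11) in Bub1, 0.17 (SE 0.08) in Kif23, 0.20 (SE 0.10) in Nusap1 and 0.28 (SE 0.12) in Anapc4. In Bub1, Kif23 and Nusap1 the IL-26 array lay above its vehicle array at both times. The median difference of the members was 0.01 at 6 h and 0.06 at 24 h, and the median over all genes was -0.00 and 0.01.

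At each time separately there is 1 array a side and no test. At 6 h, 1 of 35 members differed by at least 1.5-fold in either direction (0.0817% of all genes), and at 24 h 0 did (0.049%). At 6 h Anapc4 was 0.63 higher with IL-26, Birc5 0.32 and Nusap1 0.25. The lowest values were -0.30 in Ccna2, -0.26 in Ccnb2 and -0.17 in Bub3. At 24 h the highest differences were 0.33 in Tpx2, 0.26 in Bub1 and 0.24 in Bub3, and the lowest were -0.23 in Cdc25b, -0.17 in Cenpf and -0.13 in Plk1. The members' differences had an SD of 0.19 at 6 h and 0.13 at 24 h, against 0.12 and 0.13 over the 9180 brighter genes. Their differences at 6 h and at 24 h, which share no array, had a Pearson r of -0.09 and a Spearman rho of -0.05, and 18 of 35 had the same sign. The order of the genes at one time did not carry over to the other.

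A scanner measure moved with the treatment. The mean local background was 287 and 259 on the vehicle arrays at 6 and 24 h and 159 and 173 on the IL-26 arrays, while the median over spots was 57.1 and 62.7 against 53.6 and 54.9. Around the members' spots it had a median of 64.5% and 62.1% of the spot's own intensity with vehicle and of 39.1% and 41.3% with IL-26, and it reached or passed the spot itself for 8 and 5 members with vehicle and 0 with IL-26. With the local background subtracted, 5 members were called higher with IL-26 by limma: Birc5, Anapc5, Bub3, Bub1 and Nusap1. Each of these had a local background above its own spot on at least 1 vehicle array, so its value there was the floor of that setting and no size is given. Its part in the IL-26 values was not tested further.

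**Figure D5:**
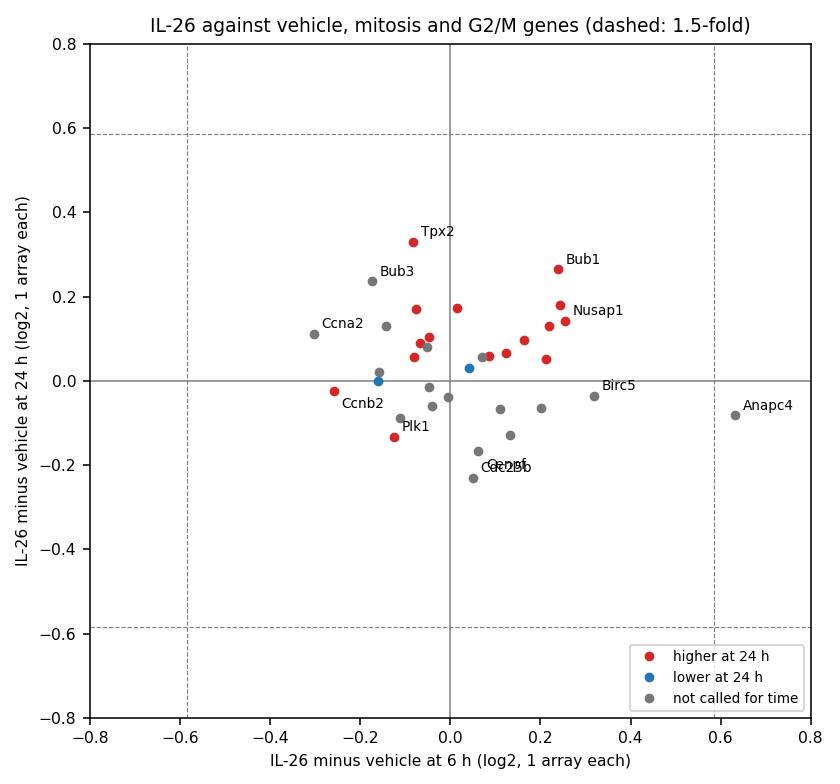
Difference of IL-26 against vehicle (log2) at 6 h on the horizontal axis and at 24 h on the vertical axis for the 35 measured genes, 1 array per group, coloured by whether the gene was higher, lower or not called with time, with dashed lines at 1.5-fold. Anapc4 at 6 h (0.63) is the one point past a dashed line, and the points form no line.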

How the data were processed

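The samples, one array each, were 3D-Gene mouse oligo chips (TORAY) hybridised with Cy5-labelled amplified RNA. Per the file headers, the deposited intensity values are the spot median in the Cy5 channel and the local background, with nothing subtracted. The authors' own processed intensity values were also deposited, made by steps not given in the sources used here. They served as an alternative.

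Spot intensities were corrected with normexp from 384 blank spots, with an offset of 50, taken to log2 and quantile normalized with limma 3.58.1 in R 4.3.3. Flagged spots (21 gene spots) were left out. Probes were named through the platform annotation (20690 of 23473 probes) and averaged per gene. Detected means above the blank mean plus 2 SD on at least 1 array, which 18360 genes were. The offset shrinks differences of dim genes. Precision is limited by 4 arrays.

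An additive limma model (time and treatment, eBayes with trend) was fitted over all 18360 genes with Benjamini-Hochberg adjustment, leaving 1 residual degree of freedom beside a prior of 56.6. IL-26 at 6 h and at 24 h had no test.

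The named genes were each of the members, with full values for the 8 largest rises with time, each fall, members past the IL-26 threshold, the 3 highest and 3 lowest for IL-26 at each time and those with 2 probes, and for each list the 2 highest and 2 lowest genes called for time. Members and lists were chosen with earlier results of these data known. Alternatives were median scaling, offsets of 16 and 100, local background, the authors' values, no variance trend, no filter, brighter genes only, and no spots beside a spot above 10000.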

Additional observations from a re-analysis of the deposited data

Results flagged for a closer look

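In 6 of the 35 members the difference of 24 h against 6 h ran one way with vehicle and the other way with IL-26, by at least 0.1 on the log2 scale each. This was so for 284 of 18360 genes (1.55%), and for 272 of the 9180 brighter genes (2.96%), the range that holds these members. The 6 lay at brightness percentiles of 76.8 to 97.7 among detected genes, and no share was taken over that narrower range. With 1 array per group the difference between treatments was not tested. Each value below is the difference over time with IL-26 minus that with vehicle. Anapc4, a scaffold subunit of the APC/C, had the largest, -0.71, from 0.52 with vehicle and -0.19 with IL-26. Ccna2 stood at 0.42, from -0.17 and 0.24, and Bub3 at 0.41, from -0.18 and 0.23. Cdc25b stood at -0.28, from 0.13 and -0.15. Aurkb stood at -0.27, from 0.11 and -0.16, and Anapc1 at -0.26, from 0.13 and -0.13. In the authors' own values, made from the same arrays, Anapc4 was also 0.64 higher with IL-26 at 6 h. Its local background was above its spot on both vehicle arrays, at 1292 against 1054 at 6 h and 1637 against 1422 at 24 h. With the local background subtracted its mean difference with time was -1.16. The part of the local background in the Anapc4 values was not tested.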

How the results depend on the processing

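The 16 rises and 2 falls with time kept their direction and their side of the threshold under 8 of 9 alternatives (median scaling, offsets of 16 and 100, the authors' values, no variance trend, no filter, brighter genes only, and no spots beside a very bright one). Without the variance trend the adjusted p-values were far larger. By limma, Nusap1 had 0.00799 in place of 1.36e-13 and Kif23 0.0108 in place of 2.69e-09. With the local background subtracted, 0 were called higher and 0 lower at 24 h, for members and for all genes, and 16 of the 18 kept their direction. The other 2 reversed, Nusap1 (-0.34, limma adjusted p = 0.722) and Aurka (-1.45, limma adjusted p = 0.645). Both had a local background above the spot on each vehicle array, so their vehicle values were the floor of that setting. On the IL-26 24 h array the background of Aurka was 1178 against a spot of 1197. In that setting 5 members were called higher with IL-26, against 0 in the others, and 726 genes in place of 78. The cause was not tested.

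The members' median for IL-26 at 6 h, 0.01, was -0.02 with median scaling, -0.09 with the local background and -0.01 with the authors' values, and that at 24 h, 0.06, was -0.01 with both median scaling and the local background. Over all genes, calls for IL-26 numbered 184 with median scaling, 38 with an offset of 16, 16 among brighter genes, 3 without the filter and 0 without the variance trend, which also gave 1759 higher and 1681 lower with time in place of 2662 and 2622. The additive model already compares the treatments within each time and the times within each treatment. Each group holds 1 array, so there was no replicate number to block on beyond these terms. Leaving out an array leaves no residual degree of freedom, so that was not run. Dim spots such as Prc1 limit what a difference could show.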
